A study of Homo sapiens with 6 samples.

Results

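The genes described here are 10 components of the Notch pathway, taken by symbol from a bulk RNA-seq table of human embryonic stem cells (hESCs) that lists 48183 gene symbols. They were the receptors NOTCH1, NOTCH2 and NOTCH3, the ligands JAG1, JAG2, DLL1, DLL3 and DLL4, and the target genes HES1 and HEY1, and all 10 were found. Counts of identifiers sharing a symbol were summed, which among these genes concerned DLL1. A further 53 genes of the pathway, in 8 lists by role, were followed beside them.

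The 6 libraries were 4 from naive and 2 from primed cells, compared to ask how Notch components differ between both states of pluripotency. The primed libraries were 1 of the EOS line (primed EOS) and 1 of the CA-p38 EOS line (primed CA-p38). Primed cells were maintained on Matrigel in StemFit medium and were not taken through naive induction. The naive libraries were made from the same lines: 2 after treatment with AICAR, an activator of AMP-activated protein kinase (AICAR 1 and AICAR 2), and 1 after valproic acid, a histone deacetylase inhibitor (VPA), all from the EOS line, and 1 after doxycycline had induced a constitutively active p38 kinase in the CA-p38 line (CA-p38). All lines carried the EOS-GFP reporter, in which a distal enhancer of OCT4 drives GFP, as an antibiotic-selected pool. To make the CA-p38 line, cells had also been given doxycycline and sorted for the mCherry that the p38 construct co-expresses. The labels name the line H1, whereas the article names H9. Naive cells had been expanded in PXGL medium and sorted for the surface markers CD75 and SUSD2. By the article, AICAR and doxycycline were withdrawn before continued expansion. PXGL holds inhibitors of MEK, tankyrase and protein kinase C, and human LIF. For the induction with valproic acid, the article lists the MEK inhibitor and LIF but not the other inhibitors. The article describes expansion on mouse embryonic fibroblasts and also culture of AICAR and CA-p38 cells without feeder cells. It does not state which was used for each library here. The state of the cells, the medium, any feeder cells and the sort therefore cannot be told apart. The article gives the AICAR libraries as consecutive passages after the same length of treatment, and VPA and CA-p38 at an earlier passage. It does not state that the AICAR libraries came from separate inductions. No label states that libraries came from separate cultures, and the p-values therefore measure the spread between these libraries alone.

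Notch receptors are single-pass membrane proteins that bind Jagged and Delta-like ligands on neighbouring cells. Ligand binding exposes the receptor to cleavage by ADAM proteases and then by gamma-secretase, and the released intracellular domain joins the DNA-binding protein RBPJ and a Mastermind co-activator to switch on genes of the HES and HEY families. HES and HEY proteins are basic helix-loop-helix repressors that hold back differentiation genes in many progenitor cells. Transcript levels do not measure cleaved receptor, which was not assayed in these libraries.

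RBPJ recognises a core of the letters TGGGAA, which is TTCCCA on the other strand. The core was searched on both strands in the 250 bases before the RefSeq start site (assembly GRCh38.p14), and such a window was given for 7 of the 10 genes. HES1 held 2 cores, the first bases at -84 and -70 from the start site, and no core was found in the windows of NOTCH1, NOTCH2, NOTCH3, JAG1, JAG2 and DLL4. Of 27305 windows of the same length, 21.1% held at least 1 core and 2.92% held 2 or more. Over the 10 genes and the other pathway genes together, 11 of 52 windows held a core, near the share of all windows, and 3 held 2 or more. Of 10 windows of HES, HEY and NRARP genes, which leave out HEY1, 6 held a core and 3 held 2 or more. The windows of 4 HES genes are printed because these related genes behaved differently in the libraries: HES1 fell in naive cells, HES4 and HES2 rose, and HES5 had at most 12 counts in any library. They lie at chr3:194135898-194136147 on the plus strand (HES1) and, on the minus strand, at chr1:1000098-1000347 (HES4), chr1:2530264-2530513 (HES5) and chr1:6419920-6420169 (HES2). Each is written from 5′ to 3′ in the direction of its gene, with the core in capitals.
HES1: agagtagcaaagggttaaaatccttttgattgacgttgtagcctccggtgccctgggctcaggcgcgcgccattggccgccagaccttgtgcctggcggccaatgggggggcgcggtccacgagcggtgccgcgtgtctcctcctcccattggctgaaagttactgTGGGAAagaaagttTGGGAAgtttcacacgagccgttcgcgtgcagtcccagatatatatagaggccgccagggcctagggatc
HES4: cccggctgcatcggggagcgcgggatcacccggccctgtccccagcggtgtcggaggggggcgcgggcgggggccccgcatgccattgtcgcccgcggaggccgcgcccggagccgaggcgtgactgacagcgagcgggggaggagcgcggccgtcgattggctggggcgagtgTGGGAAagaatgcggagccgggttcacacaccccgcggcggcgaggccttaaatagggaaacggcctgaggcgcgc
HES5: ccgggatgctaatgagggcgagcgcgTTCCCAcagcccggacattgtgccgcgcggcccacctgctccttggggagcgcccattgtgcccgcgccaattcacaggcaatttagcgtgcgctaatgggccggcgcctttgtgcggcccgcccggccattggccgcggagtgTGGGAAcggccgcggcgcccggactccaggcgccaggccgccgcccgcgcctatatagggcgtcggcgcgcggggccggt
HES2: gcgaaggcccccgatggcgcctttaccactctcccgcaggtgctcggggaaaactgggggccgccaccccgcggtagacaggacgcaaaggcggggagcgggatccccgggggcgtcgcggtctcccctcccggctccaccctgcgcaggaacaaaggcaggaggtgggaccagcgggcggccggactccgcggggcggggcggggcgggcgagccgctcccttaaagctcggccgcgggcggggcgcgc
The HES4 window held 1 core at -76, the HES5 window 2 at -224 and -80, and the HES2 window none. The longest run of letters common to the HES1 and HES4 windows was TGTGGGAAAGAA, of 12 bases, which contains the core and starts at -86 in HES1 and at -78 in HES4. This run was in 6 of 27305 windows (0.0220%), on either strand. HES1 and HES4 are among these 6 because the run was taken from them. Runs shared by other pairs of windows were not searched, so this share does not show that the match is unusual. Letters that match a core do not show that RBPJ binds there.

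The libraries held 46823699 to 54277064 counts. Levels are given as CPM, the share of a library's counts scaled to a fixed total, after TMM scaling, and a level compared between genes is further divided by the length of the Ensembl canonical transcript in kilobases (CPM per kb). A gene was called when its adjusted p in edgeR's quasi-likelihood test was under 0.05, with Benjamini-Hochberg adjustment over 26497 symbols, and log2 fold changes are naive over primed with their standard error (SE). The naive markers KLF17, DPPA3, DPPA5, KLF4, TFCP2L1 and DNMT3L were called higher in naive libraries in 6 of 6 cases, and the primed markers SFRP2, THY1, CD24, ZIC2, DUSP6 and SOX11 lower in 6 of 6. The 3 markers of both pluripotent states did not move together. POU5F1, which encodes OCT4, was not called, at 1472 to 1622 CPM in naive and at 1711 and 1645 CPM in primed libraries. NANOG was called higher in naive libraries (1.33, SE 0.11, edgeR adjusted p = 3.10e-07) and SOX2 lower (-0.87, SE 0.10, edgeR adjusted p = 1.12e-05).

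Of the 10 Notch genes, 5 were called lower in naive cells (all 3 receptors and both targets) and 3 higher (JAG2, DLL3 and DLL4), while JAG1 and DLL1 did not pass the threshold. Over all symbols tested 53.1% were called, 27% lower and 26% higher, so a call by itself does not set a gene apart here. Naive and primed libraries did not overlap for 9 of the 10 genes, against 64.9% of all symbols. The median log2 fold change was -0.79 over the 10 genes and 0.11 over all symbols tested. HES1 had rank 186 from the lowest of 26497 log2 fold changes (0.702% of symbols at or below it) and HEY1 rank 557, whereas JAG2 had rank 1729 from the highest.

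**Figure D1:**
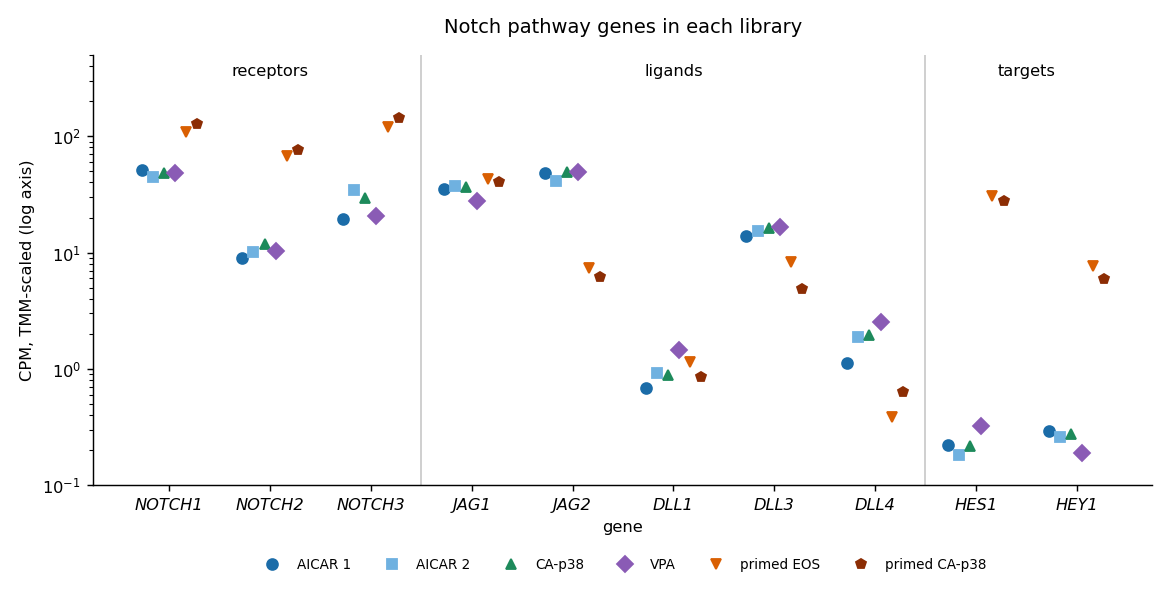
TMM-scaled CPM (log axis) of the 10 Notch genes in each of the 6 libraries, 1 point per library. Receptors and targets lie higher in both primed libraries, JAG2, DLL3 and DLL4 lie higher in all 4 naive libraries, and DLL1 overlaps.

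All 3 receptors fell in naive cells, by 1.30 to 2.80 on the log2 scale. NOTCH1 (ENSG00000148400, GRCh38 chr9:136494433-136546048, minus strand), the receptor often mutated in T-cell leukaemia, was at 51.2, 44.9, 48.4 and 48.4 CPM in AICAR 1, AICAR 2, CA-p38 and VPA, and at 109 and 127 CPM in primed EOS and primed CA-p38. Each naive library was thus below each primed library, and the naive libraries lay close together. The naive mean was 48.2 ± 2.58 CPM (SD, n = 4) and the primed mean 118 ± 12.7 CPM (SD, n = 2), a log2 fold change of -1.30 (SE 0.11, edgeR adjusted p = 4.74e-07). In bulk RNA, fewer cells that express a gene and less RNA per cell cannot be told apart.

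NOTCH2 (ENSG00000134250, chr1:119911553-120100779, minus strand), a receptor with broad roles in organ development, was at 8.98, 10.2, 11.8 and 10.4 CPM in AICAR 1, AICAR 2, CA-p38 and VPA, and at 67.4 and 76.0 CPM in primed EOS and primed CA-p38. The groups were far apart relative to the spread within them, and NOTCH2 changed most among the receptors, by -2.80 (SE 0.13, edgeR adjusted p = 2.87e-09). NOTCH2 has near-identical partial copies on chromosome 1, and reads may have been divided among them in counting. NOTCH2NLA was at 2.58 to 3.70 CPM in naive and 2.23 to 2.93 CPM in primed libraries, and its log2 fold change of 0.22 did not pass the threshold (edgeR adjusted p = 0.543). NOTCH2NLB was also not called (0.85, edgeR adjusted p = 0.155), and NOTCH2NLC was called higher in naive libraries (1.06, SE 0.30, edgeR adjusted p = 0.0105). That call was lost without primed EOS (0.84). The summed level of these 3 copies was 6.53 to 9.31 CPM in naive and 4.52 to 4.91 CPM in primed libraries. In AICAR 1 the sum exceeded NOTCH2 itself (9.31 against 8.98 CPM), and in both primed libraries NOTCH2 was far above it.

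NOTCH3 (ENSG00000074181, chr19:15159038-15200995, minus strand), best known from mural cells of blood vessels, was at 19.4, 34.3, 29.2 and 20.7 CPM in AICAR 1, AICAR 2, CA-p38 and VPA, and at 120 and 144 CPM in primed EOS and primed CA-p38. Its naive libraries varied most among the receptors (25.9 ± 7.08 CPM, SD, n = 4), yet all were below both primed libraries (132 ± 16.7 CPM, SD, n = 2). The log2 fold change was -2.35 (SE 0.19, edgeR adjusted p = 3.99e-07). The 2 AICAR libraries lay at opposite ends of the naive range, AICAR 1 at 0.566 times AICAR 2 (95% interval 0.524 to 0.611, counting error only).

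Per kb, the 3 receptors and NOTCH4 summed to 8.56 to 9.82 CPM per kb in naive libraries and to 31.7 and 37.2 CPM per kb in primed EOS and primed CA-p38. NOTCH1 made up 47.7 to 61.8% of that sum in naive and 35.7 to 36.0% in primed libraries. NOTCH3 made up 25.8 to 40.2% in naive and 43.6 to 44.5% in primed libraries, and NOTCH2 9.08 to 10.6% against 17.9 to 18.6%. NOTCH1 therefore ranked first among receptors in naive libraries and NOTCH3 in primed libraries.

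**Figure D2:**
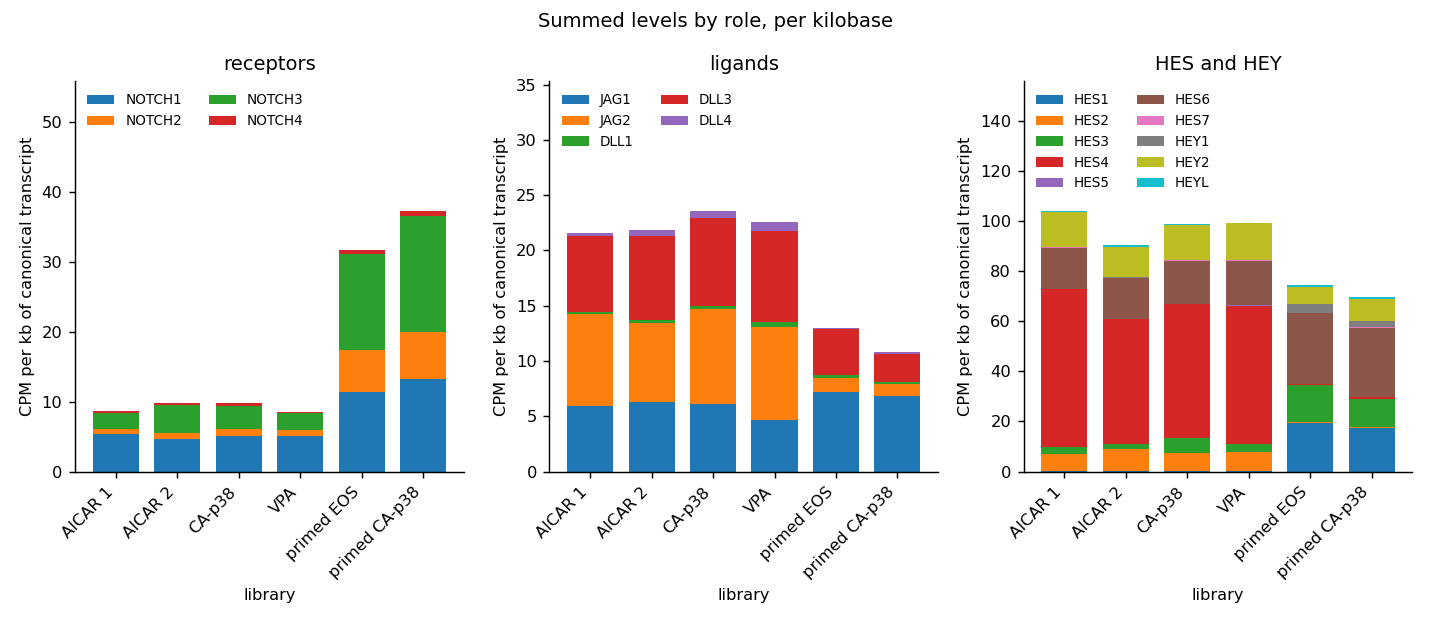
Summed CPM per kb of canonical transcript in each library for the receptors (with NOTCH4), the 5 ligands and the HES and HEY genes, stacked by gene. Receptor bars are shorter in naive libraries, ligand bars are taller with a wide JAG2 segment, and HES4 fills the largest part of the naive HES and HEY bars.

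Ligands did not follow the receptors: JAG2, DLL3 and DLL4 rose in naive cells, and JAG1 and DLL1 were not called. JAG2 (ENSG00000184916, chr14:105140982-105168824, minus strand), a Jagged ligand needed in limb and thymus development, was at 47.9, 41.3, 49.7 and 49.0 CPM in AICAR 1, AICAR 2, CA-p38 and VPA, and at 7.41 and 6.15 CPM in primed EOS and primed CA-p38. The groups did not overlap, and the naive mean of 46.9 ± 3.85 CPM (SD, n = 4) was 6.92 times the primed level in the fit, a log2 fold change of 2.79 (SE 0.16, edgeR adjusted p = 1.27e-08). An overlapping lncRNA on the same strand had 36 to 49 counts in naive and 9 to 14 in primed libraries, against 2051 to 2603 and 301 to 367 counts for JAG2.

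JAG1 (ENSG00000101384, chr20:10637684-10673999, minus strand), the Jagged ligand mutated in Alagille syndrome, was at 35.3, 37.5, 36.3 and 27.5 CPM in AICAR 1, AICAR 2, CA-p38 and VPA, and at 42.6 and 40.7 CPM in primed EOS and primed CA-p38. All 4 naive libraries were below both primed libraries, VPA by the widest margin. The log2 fold change of -0.29 (SE 0.14, 95% interval -0.59 to 0.02) did not pass the threshold (edgeR adjusted p = 0.108). The ratio of JAG2 to JAG1, both per kb, was 1.39, 1.13, 1.41 and 1.83 in AICAR 1, AICAR 2, CA-p38 and VPA, and 0.179 and 0.155 in primed EOS and primed CA-p38. JAG2 thus exceeded JAG1 in each naive library, and JAG1 exceeded JAG2 in both primed libraries.

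DLL3 (ENSG00000090932, chr19:39498895-39508481, plus strand), a divergent Delta-like protein that stays largely inside the cell and can restrain Notch signalling there, was at 13.8, 15.2, 16.1 and 16.6 CPM in AICAR 1, AICAR 2, CA-p38 and VPA. It was at 8.24 and 4.90 CPM in primed EOS and primed CA-p38, so the naive libraries agreed more closely with each other than the primed ones did. The log2 fold change was 1.23 (SE 0.22, edgeR adjusted p = 0.000421). DLL4 (ENSG00000128917, chr15:40929340-40939073, plus strand), a ligand known from sprouting endothelium, was at 1.12, 1.87, 1.96 and 2.54 CPM in AICAR 1, AICAR 2, CA-p38 and VPA, and at 0.384 and 0.634 CPM in primed EOS and primed CA-p38. It was low in all libraries, with 19 and 31 counts in the primed ones, but did not overlap between the groups, and its log2 fold change was 1.88 (SE 0.44, edgeR adjusted p = 0.00318).

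DLL1 (ENSG00000198719, chr6:170282206-170306565, minus strand), the main Delta ligand of somite and neural development, was at 0.681, 0.926, 0.890 and 1.45 CPM in AICAR 1, AICAR 2, CA-p38 and VPA, and at 1.151 and 0.858 CPM in primed EOS and primed CA-p38. Naive and primed libraries overlapped, and the log2 fold change was -0.03 (SE 0.42, edgeR adjusted p = 0.963). Its 95% interval of -0.94 to 0.88 holds changes in either direction, so these libraries do not show that DLL1 was unchanged. FAM120B overlaps DLL1 on the other strand and had 232 to 348 counts in naive and 760 to 816 in primed libraries, against 37 to 76 for DLL1. Whether strand was used in counting is not given in the sources used here. Per kb, JAG2 made up 32.7 to 38.4% of the ligand sum in naive and 9.89% in each primed library, JAG1 20.6 to 28.9% against 55.2 to 63.6%, and DLL3 31.8 to 36.8% against 22.7 to 31.7%.

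The targets gave the largest changes among the 10 genes. HES1 (ENSG00000114315, chr3:194136148-194138732, plus strand), the prototype Notch-induced repressor, had 12, 9, 11 and 17 counts in AICAR 1, AICAR 2, CA-p38 and VPA, and 1515 and 1355 counts in primed EOS and primed CA-p38. These are 0.221, 0.181, 0.218 and 0.325 CPM in the naive libraries and 30.6 and 27.7 CPM in the primed ones. All naive libraries were near the limit of detection, where 3 counts correspond to 0.0553 to 0.0641 CPM of the deposited totals, and both primed libraries were well above it. HES1 was 122-fold lower in naive cells, a log2 fold change of -6.93 (SE 0.23, edgeR adjusted p = 1.55e-10).

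HEY1 (ENSG00000164683, chr8:79762371-79767857, minus strand), a target best known from the heart and vessels, had 16, 13, 14 and 10 counts in AICAR 1, AICAR 2, CA-p38 and VPA, and 379 and 293 counts in primed EOS and primed CA-p38. In CPM these are 0.294, 0.262, 0.277 and 0.191 in the naive and 7.65 and 5.99 in the primed libraries. The groups did not overlap, and HEY1 was 26.4-fold lower in naive cells, a log2 fold change of -4.72 (SE 0.31, edgeR adjusted p = 4.62e-08).

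The order of the 10 genes per kb differed between the states. In naive libraries JAG2 (7.15 to 8.60 CPM per kb) and DLL3 (6.87 to 8.30) came first and overlapped, followed by JAG1 (4.64 to 6.32) and NOTCH1 (4.69 to 5.35), which also overlapped. NOTCH3 and NOTCH2 came next, then DLL4 (0.328 to 0.741) and DLL1 (0.180 to 0.384), which overlapped. HES1 (0.115 to 0.206), which overlapped DLL1 and HEY1, and HEY1 (0.0869 to 0.134) came last. In primed libraries HES1 came first (17.6 and 19.4 CPM per kb), before NOTCH3 (13.8 and 16.6), NOTCH1 (11.4 and 13.3), JAG1 (6.85 and 7.17) and NOTCH2 (5.90 and 6.65). DLL3 and HEY1 followed and overlapped, and JAG2 (1.07 and 1.28), DLL1 and DLL4 came last.

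The other HES and HEY genes moved in both directions. Of the 9 further HES, HEY and target genes, 8 were tested: HES4, HES2 and HEY2 rose, HES3, HES6 and NRARP fell, and HEYL and HES7 were not called, although HES7 was called higher without AICAR 2 (2.11). HES4, a HES1 relative absent from the mouse genome, was at 55.6, 44.3, 47.3 and 48.9 CPM in AICAR 1, AICAR 2, CA-p38 and VPA, and at 0.343 and 0.409 CPM in primed EOS and primed CA-p38. That is the mirror image of HES1, with the primed libraries near the limit of detection (17 and 20 counts), and the log2 fold change was 7.02 (SE 0.22, edgeR adjusted p = 7.72e-11). HES2 was at 28.9, 38.1, 31.6 and 31.9 CPM in AICAR 1, AICAR 2, CA-p38 and VPA, and at 0.889 and 1.08 CPM in primed EOS and primed CA-p38, a log2 fold change of 5.04 (SE 0.22, edgeR adjusted p = 1.04e-09).

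NRARP, a Notch-induced inhibitor of Notch signalling, was at 6.00 to 9.64 CPM in naive libraries and at 35.1 and 30.3 CPM in primed EOS and primed CA-p38 (log2 fold change -2.08, SE 0.19, edgeR adjusted p = 9.47e-07). The remaining genes of this list were named after their values had been seen. HES6, which counteracts HES1 in neural cells, was at 22.5 to 24.02 CPM in naive and 38.9 and 38.01 CPM in primed libraries (-0.73), HES3 at 1.27 to 4.04 against 8.03 and 10.6 CPM (-1.93), and HEY2 at 32.3 to 37.9 against 18.0 and 22.6 CPM (0.82). HES5, a common Notch target in neural progenitors, had 0 to 12 counts and was not tested, although its window holds 2 cores.

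Per kb, HES and HEY genes summed to 90.3 to 104 CPM per kb in naive and 69.5 and 74.6 CPM per kb in primed libraries. HES4 made up 54.1 to 60.4% of this sum in naive libraries and 0.520 to 0.664% in primed ones. HES1 made up 0.127 to 0.207% in naive and 25.3 to 26.1% in primed libraries, HES6 15.8 to 18.2% against 38.2 to 40.0%, and HEY2 13.3 to 14.5% against 9.19 to 12.4%. HES4 was thus the largest part of the sum in naive libraries and HES6 in primed libraries, with HES6 and HEY2 present in both states.

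Across the wider pathway, 52 of 53 genes were tested, of which 14 were called higher, 21 lower and 17 not called, beside the 53.1% called over all symbols. The median log2 fold change was -0.18. Naive and primed libraries did not overlap for 44 of these genes, beside 64.9% of all symbols. Among the other receptor and ligands, DLK1, an imprinted Delta-like protein that lacks the receptor-binding DSL domain, rose from 0.990 and 0.388 CPM in primed EOS and primed CA-p38 to 12.5 to 16.6 CPM in naive libraries (4.47, SE 0.34, edgeR adjusted p = 2.08e-07). Its relative DLK2 also rose (2.07, SE 0.40, edgeR adjusted p = 0.000815). NOTCH4 was at 1.47 to 2.24 CPM in naive and 3.84 and 4.82 CPM in primed libraries (-1.19, edgeR adjusted p = 0.00291). That call was lost when 1 of its 7 identifiers was kept (-1.01, edgeR adjusted p = 0.125). DNER was not called (-1.58, edgeR adjusted p = 0.0606), but was without VPA (-2.02).

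Of the 5 enzymes that add sugars to the receptor, 1 rose and 3 fell. The Fringe enzymes, which extend O-fucose and alter the response to Jagged and Delta ligands, split: RFNG rose (1.30, SE 0.19, edgeR adjusted p = 7.03e-05) and MFNG, at 0.101 to 0.435 CPM in naive libraries, fell (-2.34, SE 0.50, edgeR adjusted p = 0.00166). POGLUT1, which adds O-glucose, fell (-0.96, SE 0.18, edgeR adjusted p = 0.000678), as did LFNG (-0.50, edgeR adjusted p = 0.0349). The LFNG call was lost without CA-p38, VPA or primed CA-p38 (-0.46, -0.47 and -0.27), with the line as a block (-0.49, edgeR adjusted p = 0.0626) and under library totals (-0.40). The 4 ubiquitin ligases that drive ligand endocytosis also split within each pair. MIB1 was at 34.6 to 46.3 CPM in naive libraries and at 104 CPM in both primed libraries (-1.36, SE 0.12, edgeR adjusted p = 1.04e-06), and MIB2 at 56.5 to 76.1 against 19.1 and 16.5 CPM (1.88, SE 0.16, edgeR adjusted p = 5.05e-07). NEURL1 rose (4.38, SE 0.40, edgeR adjusted p = 1.19e-06) while NEURL1B fell (-2.29, SE 0.31, edgeR adjusted p = 3.59e-05).

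Of 8 genes of receptor cleavage, 1 rose, 3 fell and 4 were not called. APH1B, one of the alternative APH1 subunits of gamma-secretase, was at 0.460, 0.503, 0.178 and 0.153 CPM in AICAR 1, AICAR 2, CA-p38 and VPA, and at 12.8 and 12.4 CPM in primed EOS and primed CA-p38 (-5.27, SE 0.38, edgeR adjusted p = 1.18e-07). ADAM10, the protease of the first ligand-dependent cut, fell by 0.94 on the log2 scale (SE 0.11, edgeR adjusted p = 1.03e-05). APH1A (-0.46) also fell, and FURIN, which cuts the receptor during its maturation, rose (0.63, SE 0.11, edgeR adjusted p = 0.000315). The levels of these cleavage genes therefore did not move in 1 direction.

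Of 6 genes of nuclear activation, 1 rose, 3 fell and 2 were not called. RBPJ itself was at 78.6, 75.6, 80.1 and 70.0 CPM in AICAR 1, AICAR 2, CA-p38 and VPA, and at 135 and 131 CPM in primed EOS and primed CA-p38 (-0.81, SE 0.10, edgeR adjusted p = 1.88e-05). The co-activators MAML2 (-3.64, SE 0.23, edgeR adjusted p = 3.78e-08) and MAML3 (-3.89, SE 0.37, edgeR adjusted p = 1.41e-06) fell, and MAML1 was not called, at 69.6 to 84.5 CPM in naive and 88.8 and 98.7 CPM in primed libraries. The 1 that rose was SNW1 (0.74). Of 8 genes of nuclear repression, the co-repressors TLE1 (-1.71) and TLE4 (-1.40) fell, TLE3 (1.05) and TLE2 (0.89) rose, and 4 were not called. The TLE2 call was lost without CA-p38, VPA, primed EOS or primed CA-p38 (0.68 to 1.01). Of 9 genes of receptor turnover, NUMB (0.62) and ITCH (0.48) rose and 4 Deltex genes fell: DTX1 (-2.55), DTX3 (-1.26), DTX2 (-0.95) and DTX4 (-0.86). The ITCH call was lost without primed EOS (0.39). In these lists LFNG, APH1A, MAML1, SNW1, TLE2, NUMB, ITCH and DTX4 were named after their values had been seen.

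**Figure D3:**
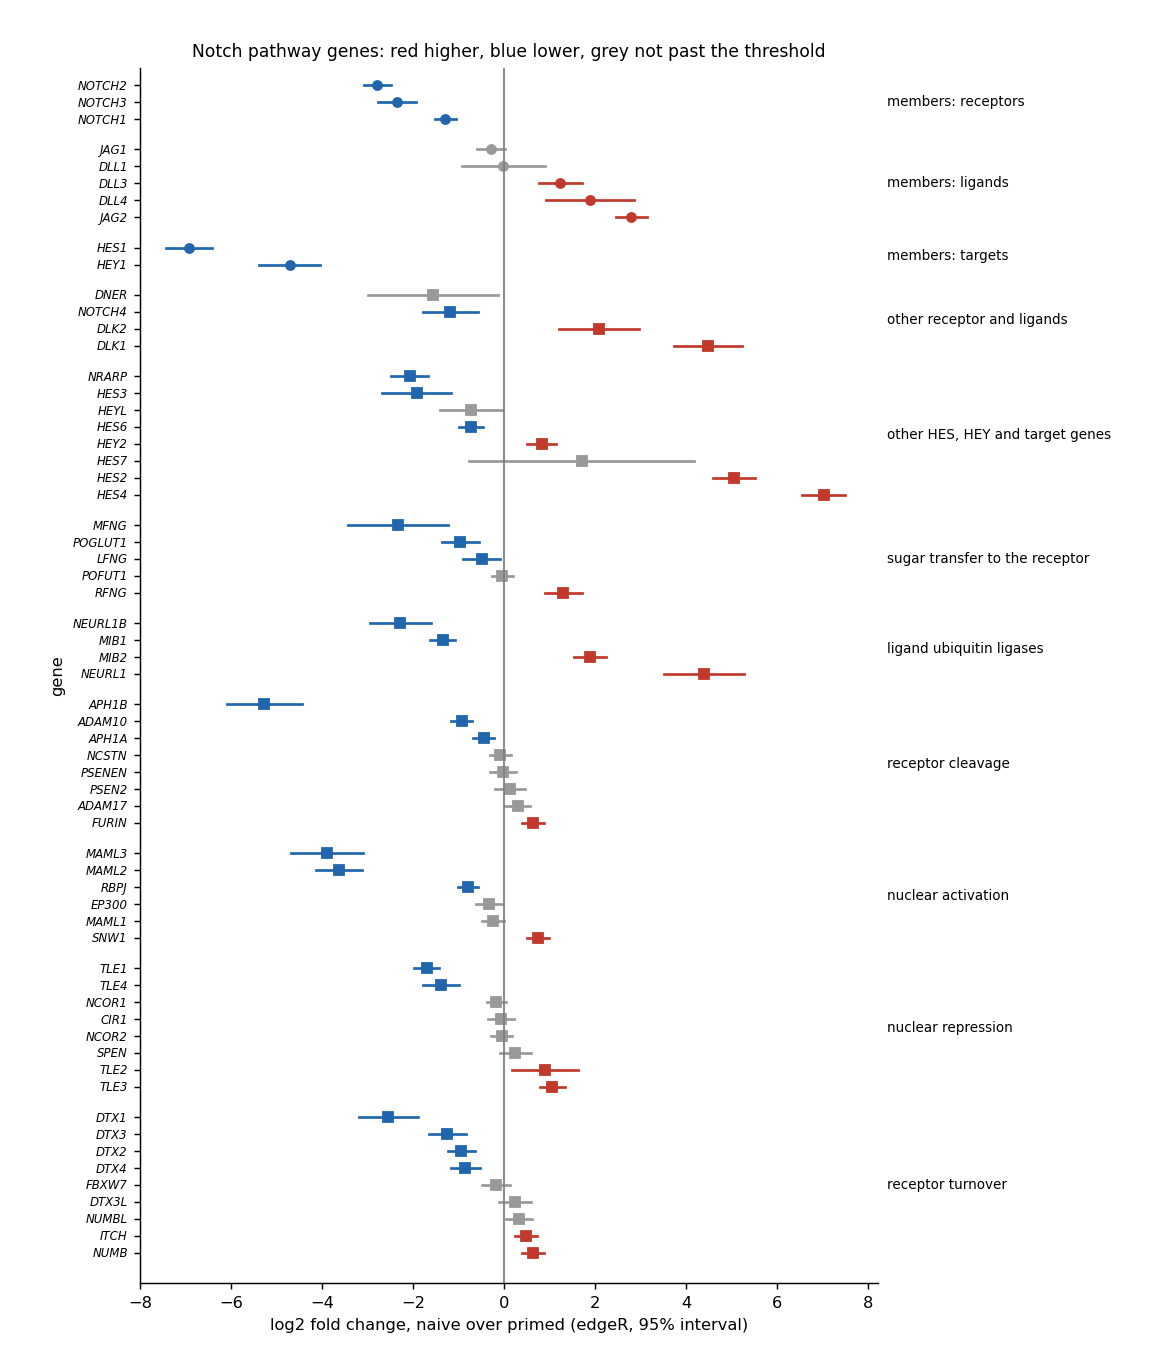
Log2 fold changes (naive over primed) with 95% intervals from edgeR for the 10 Notch genes (circles) and 52 further pathway genes (squares), by role. HES4 at 7.02 and HES1 at -6.93 lie at opposite ends, and the lists other than the 3 receptors and the 2 targets hold genes on both sides of 0 or genes that were not called.

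Each naive library was next set against the primed library of its own line. These ratios have 1 library on each side, and their 95% intervals (Clopper-Pearson) cover counting error only. HES1 was 139-fold lower in AICAR 1, 169-fold in AICAR 2, 94.3-fold in VPA and 127-fold in CA-p38, and HEY1 was 26.01-fold, 29.3-fold, 40.1-fold and 21.6-fold lower in the same order. NOTCH1 was 2.14-fold to 2.63-fold lower and NOTCH2 6.45-fold to 7.51-fold lower across the 4 naive libraries. These 4 genes were thus below the parental library after each of the 3 inductions.

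NOTCH3 was 6.19-fold lower in AICAR 1, 3.50-fold in AICAR 2, 5.81-fold in VPA and 4.93-fold in CA-p38. DLL3 was 1.67, 1.85 and 2.02 times its parental level in AICAR 1, AICAR 2 and VPA, and 3.28 times (95% interval 2.84 to 3.81) in CA-p38, whose parental library had the lower primed level. DLL4 ran from 2.92 times in AICAR 1 to 6.62 times in VPA, JAG2 from 5.57 times in AICAR 2 to 8.07 times in CA-p38, and DLL1 from 0.591 times in AICAR 1 to 1.26 times in VPA.

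Whether the change differed between the lines was tested as an interaction of line and state in edgeR. Line and induction cannot be told apart in it: the CA-p38 line had only the CA-p38 induction, and the EOS line only AICAR and VPA. The CA-p38 line had 1 naive and 1 primed library, so that its libraries are assumed to vary like the 3 naive libraries of the EOS line. Those 3 libraries mix AICAR with VPA, so any difference between these inductions counts as spread. None of the 10 Notch genes was called by edgeR, and 0 were at an unadjusted p under 0.05, where 0.00377% of all symbols were called. The lowest unadjusted p among the 10 genes, in edgeR's fit of all symbols, was 0.0584, for DLL3, with a difference of 0.83 on the log2 scale (95% interval -0.04 to 1.70). The intervals were wide, for example -1.22 to 1.19 for HES1 and -1.01 to 0.97 for NOTCH3, and do not show that the lines changed alike.

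**Figure D4:**
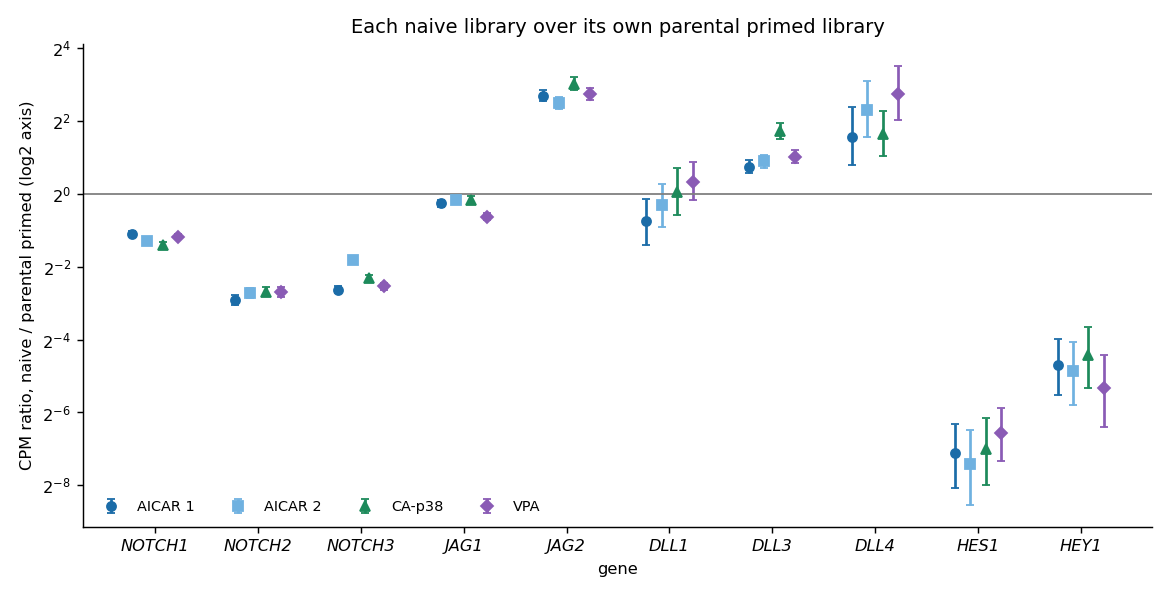
CPM ratio of each naive library to the primed library of its own line (log2 axis) for the 10 Notch genes, with 95% intervals that cover counting error. HES1 is lower by 94.3-fold to 169-fold in all 4 naive libraries, and NOTCH3 and DLL3 spread more between libraries than NOTCH2 does.

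Markers of other cells that use Notch were read beside these results. Of 8 fibroblast transcripts, COL1A1, COL1A2, POSTN and PDGFRB fell, TWIST1 rose, and COL3A1, DCN and LUM were not called. Their sum was 50.9 to 92.7 CPM in naive and 192 and 210 CPM in primed libraries, a sum in which COL1A1 and COL1A2 were at 9.53 to 30.4 CPM in naive and 59.7 to 123 CPM in primed libraries. LUM was at 0 in AICAR 2 and VPA. Of 5 endothelial markers 2 rose (CDH5 and VWF), 2 fell (TIE1 and TEK) and PECAM1 was not called, with sums of 27.4 to 43.6 CPM in naive and 31.5 and 34.0 CPM in primed libraries. Of 6 neural markers tested TUBB3 rose and 2 fell (MAP2 and NES), with sums of 243 to 289 CPM in naive and 547 and 645 CPM in primed libraries, and MAP2 was at 0 in CA-p38. Of 6 trophectoderm markers tested 5 rose (TFAP2C, TFAP2A, KRT7, HAND1 and CDX2) and GATA3 was not called, with sums of 124 to 143 CPM against 9.52 and 9.63 CPM. TFAP2C alone, at 104 to 121 CPM, gave most of each naive sum. Its level was 5.72 CPM for primed EOS and 4.54 CPM for primed CA-p38. Naive means of the others called were lower: TFAP2A 8.33, KRT7 7.21, HAND1 1.98 and CDX2 1.82 CPM. Of 5 mesoderm markers tested 3 rose, with sums of 13.1 to 17.1 CPM against 4.85 and 7.87 CPM, and MSGN1 was at 0 in all libraries but AICAR 2. Of 5 endoderm markers GATA4 rose and SOX17, FOXA2 and CXCR4 fell, with sums of 11.7 to 17.8 CPM in naive libraries and of 9.84 (primed EOS) and 32.9 CPM (primed CA-p38) in primed ones. The part of such cells, or of reads from the mouse feeder cells, in the Notch gene levels was not tested.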

How the data were processed

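Bulk RNA-seq of 4 naive and 2 primed libraries was used. The authors trimmed adapters with cutadapt 1.15 through Trim Galore 0.4.4, mapped reads with Bowtie2 to cDNA and noncoding RNA of Ensembl GRCh38 release 100, discarded alignments of mapping quality below 1, and deposited whole-number counts per Ensembl gene identifier. Multiple mapping among near-identical genes can therefore split counts. A further 23 columns, from other studies, were left unused, and 26 spike-in rows were left out.

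From the counts, identifiers sharing a symbol were summed (61196 identifiers, 48183 symbols), and naive and primed libraries were compared in edgeR 4.0.16 under R 4.3.3 (TMM scaling, filterByExpr by group, glmQLFit, glmQLFTest, Benjamini-Hochberg over 26497 symbols) without covariates. DESeq2 1.42.0 and limma-voom 3.58.1 were alternatives, beside other scalings, count filters, 1 identifier per symbol, a block for the line, a sum of both AICAR libraries, and leaving out single libraries. The test was also run on simulated counts of independent libraries with a common spread, in which few genes changed, up and down alike. In these data 53.1% of symbols were called and libraries may not be independent. The simulation therefore does not check the p-values under the conditions here. For 4 against 2 libraries the smallest p of an exact permutation test is 0.0667. Positions and transcript lengths came from GENCODE release 44 (GRCh38). Every one of the 10 genes was named, and in each list of other pathway genes at most the 3 called genes with the largest absolute change and no overlap, with lists of 4 or fewer named in full. Members, lists and alternatives were chosen with earlier results of these data known, and leaving out naive libraries in the interaction fit was added after seeing the data. The AICAR libraries differed from each other beyond counting noise and were kept as 2. The mean chi-square per gene was 26.8 between them. It was 26.7 and 25.4 for AICAR 1 and AICAR 2 against CA-p38, and 28.4 and 47.0 against VPA. Separate preparation of libraries can exceed counting noise by itself, so this does not show separate cultures or inductions. Genes with 0 counts are limited to 3 counts per library. Some genes of these lists are not reported here.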

Additional observations from a re-analysis of the deposited data

How the results depend on the processing

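Under 15 alternatives, 8 of the 10 Notch genes were called (5 lower, 3 higher), except that 7 of 9 tested (4 lower, 3 higher) were called under a filter of 10 counts in each library, which removes HES1. The median log2 fold change of all symbols was 0.11, and 0.21 when library totals replaced TMM. DLL1, never called, changed sign: its log2 fold change was 0.0688 with library totals, 0.24 with 1 identifier per symbol (naive mean 0.556 and primed mean 0.480 CPM) and 0.0490 with the AICAR libraries summed. With 1 library left out it ran from -0.29 to 0.19, and was above 0 without AICAR 1 (0.103), AICAR 2 (0.00678), CA-p38 (0.00363) or primed EOS. The difference between lines, also never called, changed sign for NOTCH3 (0.0157) and HES1 (0.0411) with library totals and for DLL1 (-0.49) with 1 identifier per symbol. It reached 0.28 for NOTCH3 without AICAR 2 and 0.26 for HES1 without VPA. The primed mean of JAG1 was 39.8 CPM with library totals and 43.6 CPM with 1 identifier per symbol. HEYL and DNER were called by limma-voom, DNER also without VPA and HES7 without AICAR 2, and NOTCH2NLC was not called without primed EOS (0.84). LFNG and TLE2 each lost their call under 5 alternatives, ITCH without primed EOS, and NOTCH4 with 1 identifier per symbol. The causes were not tested. Replicate numbers do not pair naive with primed libraries in the labels, and the line was used as a block instead: 8 Notch genes (5 lower, 3 higher) and 34 other pathway genes (20 lower, 14 higher) were called, and of the genes named LFNG alone lost its call. Differences among the inductions were not tested for HES1 and HEY1, which had 9 to 17 and 10 to 16 counts in naive libraries. Ratios between single libraries had wide 95% intervals from counting error alone. Examples are 0.756 to 4.56 for HES1 in VPA over AICAR 2 and 0.263 to 1.52 for HEY1 in VPA over AICAR 1.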
